A study of Mus musculus with 6 samples.

Results

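Solute carriers are the largest group of membrane transporters in mammals, and their gene symbols start with Slc or, for the organic anion transporting polypeptides, with Slco. All 347 genes whose symbol has the form Slc, a family number, the letter a and a member number, or starts with Slco and a number, were taken from a table of 34652 mouse genes. Of these, 141 reached at least 1 FPKM (fragments scaled by gene length and library total) in at least 3 of 6 libraries, as did 11317 genes of the whole table, and they are the members compared here. They fall into 13 substrate classes, assigned by hand from the transporter family, and the amino acid, sugar, metal, nucleoside and lipid classes are given first.

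The libraries came from cells of the cerebrospinal fluid of Cx3cr1CreER:mTmG mice that had received tamoxifen and LLC-LeptoM cells, a leptomeningeal derivative of the Lewis lung carcinoma line, and in which the fluid was taken on day 12. In these mice Cx3cr1 drives the tamoxifen-dependent Cre, so that GFP marks cells in which Cre was active and their descendants. The dLAM group (3 libraries, resident macrophages per the labels) was sorted as CD45+CD11b+F4/80+Ly6C-GFP+ cells. The Mono-MΦ group (3 libraries, monocyte-macrophages) mixed CD45+CD11b+F4/80+GFP- cells with CD45+CD11b+F4/80lowLy6C+GFP- cells, so it holds more than 1 sorted population. Both groups carried the same alleles, drug and tumour, and the comparison is between the sorted populations within tumour-bearing mice. The labels do not say whether libraries of a group came from separate mice, and p-values therefore measure only the spread between these libraries. Values listed by library are in the order of libraries 1, 2 and 3 of each group.

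Each solute carrier family moves a limited set of substrates across a cell or organelle membrane, by exchange, by coupling to sodium or proton gradients, or by facilitated diffusion. Macrophages take up amino acids through pairs of a shared heavy chain and a substrate-specific light chain, take up glucose through facilitative carriers, and use zinc, iron and heme carriers when they digest engulfed cells. Lysosomal carriers return the amino acids, nucleosides and metals freed by that digestion to the cytosol.

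Of the 141 members, 40 were higher in dLAM and 13 were lower, and 88 did not pass the test (limma on log2(FPKM + 1), Benjamini-Hochberg adjusted p under 0.05 over all 11317 genes). That is 28.4% higher and 9.22% lower, against a background of 19.9% of all tested genes higher and 10.6% lower. The same background applies to the counts by class and by list below. The median log2 fold change, dLAM minus Mono-MΦ here and throughout, was 0.13 over the members and 0.06 over all tested genes. A log2 fold change of 1 or more was called in 10 of the 141 members (7.09%), a share near the background of 7.8% of all tested genes. These were Slco2b1, Slc30a4, Slc12a2, Slc12a7, Slc7a8, Slc46a3, Slc37a2, Slc7a5, Slc39a4 and Slc29a3. None of the 13 called lower reached -1, where the background was 3.78%. The 3 dLAM libraries all lay above the 3 Mono-MΦ libraries for 54 members (background 29.3%) and all below for 18 (background 16.9%). After quantile normalization, 27 members were called higher and 19 lower, so the share of calls that were higher fell from 75.5% to 58.7%, and the median of all tested genes moved by -0.10. Under that scaling 19.1% of members were higher and 13.5% lower, near the 16.2% and 14.5% of all tested genes, of whose calls 52.8% were higher.

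Part of the count depends on the detection limit of 1 FPKM. In 10 members the limit was met in all dLAM libraries and in no Mono-MΦ library, so these members had to differ, and they give no support to the direction of the count. They are Slco2b1, Slc30a4, Slc39a4, Slc41a2, Slc29a2, Slc27a3, Slc14a1, Slc5a3, Slc2a8 and Slc7a2, and all 10 were among the members called higher. No member met the limit in Mono-MΦ alone. Over all 11317 tested genes, 555 met it in dLAM alone and 88 in Mono-MΦ alone. Of the other 131 members, 30 were higher (22.9%) and 13 were lower (9.92%). Of the other 10674 genes of the table, 16.1% were higher and 10.6% lower. Leaving out each library in turn left 27 to 33 members higher (19.1% to 23.4%) and 6 to 15 lower (4.26% to 10.6%). In the same fits 14.05% to 18.5% of all tested genes were higher and 6.89% to 10.8% lower. Of the 53 calls of members, 30 held without every single library. The count of lower calls fell to 7 without dLAM library 1, 6 without dLAM library 2 and 8 without Mono-MΦ library 3.

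**Figure D1:**
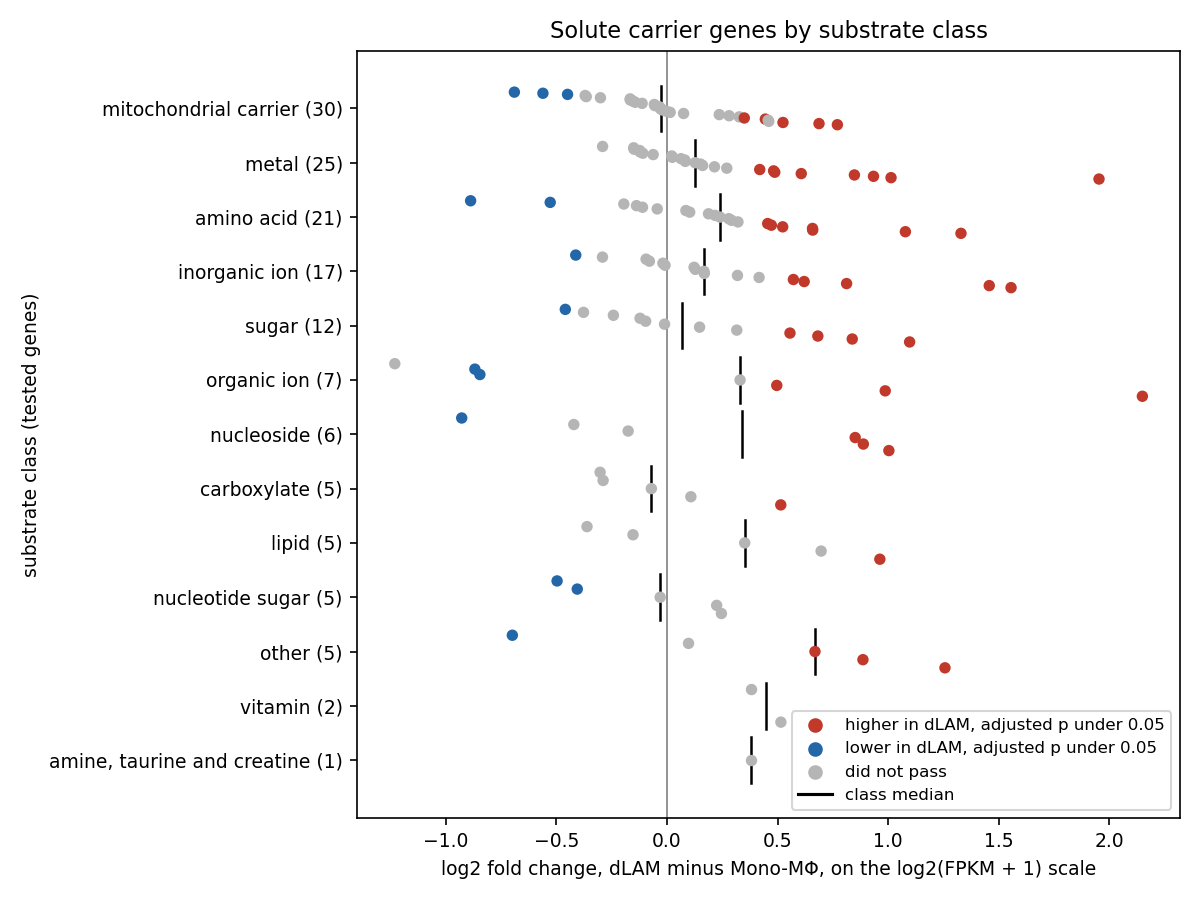
Log2 fold change (dLAM minus Mono-MΦ, on the log2(FPKM + 1) scale, x axis) of the 141 members by substrate class (y axis), 1 point a gene, red for called higher, blue for called lower, grey for not passed, with a black bar at the class median. Metal carriers have 8 red points, 3 of them at 1 FPKM or more in dLAM alone, and no blue one. Mitochondrial carriers hold 5 red and 3 blue points around a median of -0.03.

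The libraries had an estimated 1.23e+07 to 1.70e+07 fragments, and 1 read in a gene with 2 kb of exon was worth 0.0294 to 0.0407 FPKM. All 9 border macrophage markers were higher in dLAM, with a summed level of 254 to 279 FPKM against 23.3 to 36.4 FPKM, and all 8 classical monocyte markers were lower, at 843 to 1099 FPKM against 4073 to 5528 FPKM. Of the 9 macrophage markers, 4 reached 1 FPKM in all dLAM libraries and in no Mono-MΦ library (tested through dLAM alone), and so had to differ. Markers of other cells differed between the groups too. T cell markers summed to 189 to 239 FPKM in dLAM and 6.003 to 32.8 FPKM in Mono-MΦ (9 of 9 higher). Dendritic cell markers summed to 88.3 to 149 against 12.8 to 15.9 FPKM (6 of 7 tested higher, 5 of them tested through dLAM alone). Mast cell markers summed to 40.9 to 85.3 against 0.423 to 1.39 FPKM (5 of 5 higher, 4 of them tested through dLAM alone, with Cma1, Cpa3 and Mcpt4 at 0 in every Mono-MΦ library). B cell markers summed to 8.70 to 13.7 against 1.03 to 2.31 FPKM (2 of 2 tested higher, 1 of them tested through dLAM alone). Carcinoma cell markers summed to 6.02 to 9.89 against 0.6 to 1.03 FPKM. Most of the sum in dLAM was Epcam, at 5.86, 4.7 and 7.5 FPKM in dLAM and 0.0716, 0.279 and 0.144 FPKM in Mono-MΦ. Epcam and Krt18 were tested through dLAM alone, so their calls add nothing to these values, and the untested Krt7 was lower in every dLAM library (0.164 ± 0.0614 FPKM in dLAM and 0.305 ± 0.0875 FPKM in Mono-MΦ). Red cell markers summed to 7.16 to 9.53 against 0.0222 to 3.0 FPKM (3 of 3 tested higher, 2 of them tested through dLAM alone). The 5 meningeal fibroblast markers were too low to be tested, and each lay higher in every dLAM library than in any Mono-MΦ library, with sums of 2.74 to 4.46 against 0.305 to 0.69 FPKM. Platelet markers summed to 40.2 to 55.9 against 2.68 to 13.7 FPKM, mostly from Pf4, which is also 1 of the 9 border macrophage markers. The other tested platelet marker, Ppbp, did not pass (log2 fold change 0.61, 95% interval -0.3 to 1.53, adjusted p = 0.29). Endothelial markers summed to 6.07 to 7.25 against 4.02 to 5.24 FPKM, and neural and choroid plexus markers to 7.76 to 14.8 against 6.65 to 8.36 FPKM. Cell cycle genes were lower in dLAM in 9 of 10 cases, at 114 to 130 FPKM against 327 to 467 FPKM. Neutrophil and progenitor markers were lower in 6 of 10 cases, with sums of 1647, 1463 and 1266 FPKM in dLAM libraries 1, 2 and 3 and of 1981, 7109 and 11959 FPKM in Mono-MΦ libraries 1, 2 and 3. The part of these cells in the transporter differences was not tested, and in bulk libraries fewer cells of a type and less RNA per cell cannot be told apart.

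Leading members by size of change came from several classes. Slco2b1, an organic anion transporting polypeptide that carries steroid conjugates (chr7:99657804-99711340, build mm10 as for all gene positions), read 4.21, 2.97 and 3.3 FPKM in dLAM and 0.0176, 0 and 0 FPKM in Mono-MΦ (log2 fold change 2.15, SE 0.14, adjusted p = 7.0e-05). It was listed at 0 in Mono-MΦ libraries 2 and 3, so no ratio of means is given. Slc12a2, the sodium-potassium-chloride cotransporter of cell volume control, read 5.81, 4.47 and 3.94 FPKM in dLAM and 0.784, 1.18 and 0.865 FPKM in Mono-MΦ, 5.03-fold higher in dLAM (log2 fold change 1.56, SE 0.16, adjusted p = 4.2e-04). Every dLAM library lay above every Mono-MΦ library for both genes, but Slco2b1 was tested through dLAM alone and so had to differ. Slc46a3, a lysosomal carrier (chr5:147878437-147894815), read 4.16, 5.39 and 4.6 FPKM in dLAM and 2.37, 0.706 and 1.35 FPKM in Mono-MΦ. For Slc46a3 the log2 fold change was 1.26 (SE 0.24, adjusted p = 0.0069). Its Mono-MΦ levels spread more widely than its dLAM levels, and the groups did not overlap.

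**Figure D2:**
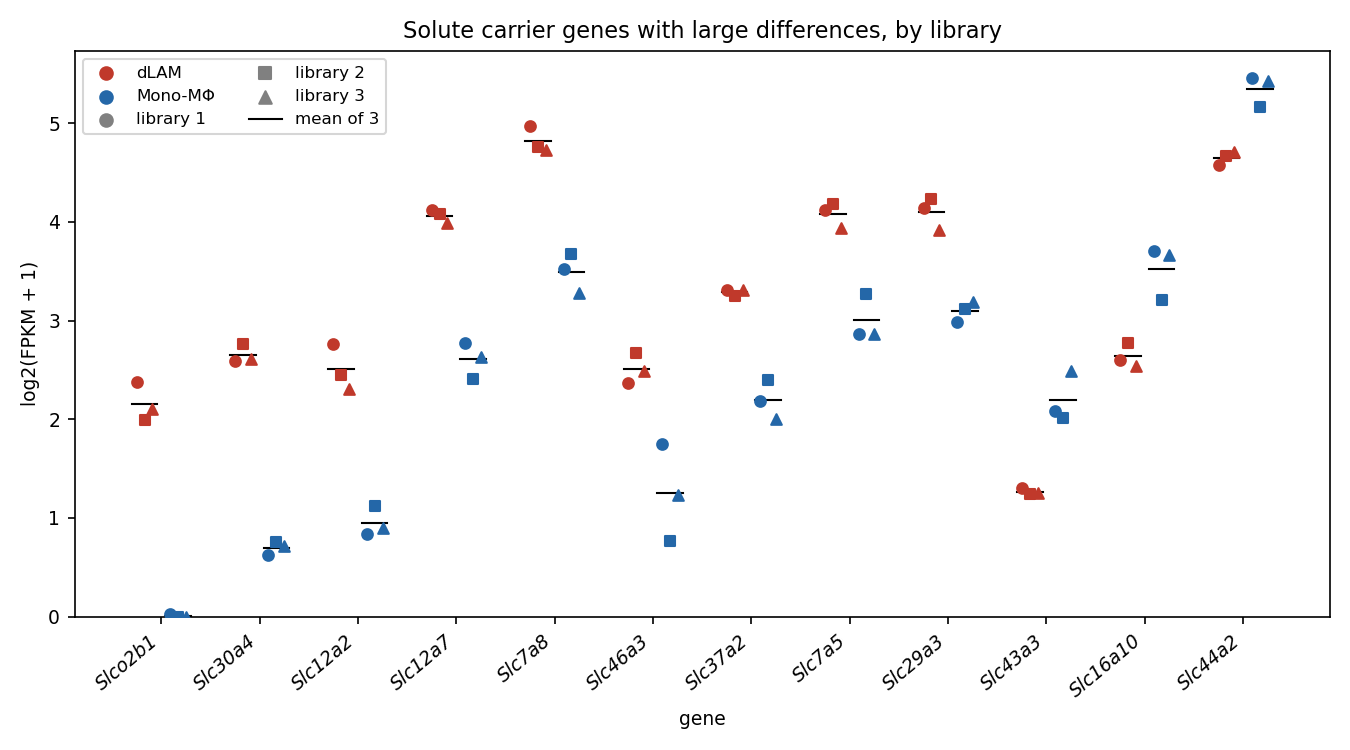
Level as log2(FPKM + 1) (y axis) in each library for 12 members with large changes (x axis), red for dLAM and blue for Mono-MΦ, with circle, square and triangle for libraries 1, 2 and 3 and a line at the mean of 3. The groups do not overlap for any of the 12, which were drawn for their large changes. Slco2b1 and Slc30a4 were tested through dLAM alone and had to differ. Slc43a3, Slc16a10 and Slc44a2 are the members drawn that were lower in dLAM.

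Of the 60 amino acid and peptide carriers, 21 were tested and 12 did not pass, with a median log2 fold change of 0.24. In dLAM 7 were higher (33.3%, background 19.9%, 1 of them tested through dLAM alone) and 2 were lower (9.52%, background 10.6%). The class summed to 231 to 248 FPKM in dLAM and 209 to 234 FPKM in Mono-MΦ, so the sums of the groups overlapped. The members that rose included the heavy chain Slc3a2 and its light chains Slc7a5 and Slc7a8, and those that fell were Slc38a2 and Slc16a10. Slc7a8, the light chain for small and large neutral amino acids (chr14:54722209-54781946), read 30.5, 26.1 and 25.5 FPKM in dLAM and 10.5, 11.7 and 8.71 FPKM in Mono-MΦ. This was 2.65-fold higher in dLAM (log2 fold change 1.33, SE 0.13, adjusted p = 3.4e-04), and the lowest dLAM library lay above the highest Mono-MΦ library. Slc7a5, the light chain for large neutral amino acids such as leucine (chr8:121881150-121907694), read 16.4, 17.1 and 14.3 FPKM in dLAM and 6.31, 8.63 and 6.3 FPKM in Mono-MΦ, again without overlap. Slc7a5 had a log2 fold change of 1.08 (SE 0.14, adjusted p = 0.0012). The heavy chain Slc3a2, which brings both light chains to the cell surface (chr19:8706882-8723369), read 20.6, 18.8 and 21.98 FPKM in dLAM and 10.99, 17.2 and 10.4 FPKM in Mono-MΦ, and Mono-MΦ library 2 was its highest Mono-MΦ library. For Slc3a2 the log2 fold change was 0.66 (SE 0.18, adjusted p = 0.030).

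Of the other 4 light chains of Slc3a2, Slc7a6, Slc7a7 and Slc7a11 did not pass the test, and Slc7a10 was too low to be tested. Slc7a6 and Slc7a7 exchange cationic for neutral amino acids. Slc7a6 stood at 4.3 ± 0.706 FPKM in dLAM and 3.4 ± 0.878 FPKM in Mono-MΦ (mean ± SD, n = 3 in each group, as in all such pairs). For Slc7a6 the log2 fold change was 0.28 (95% interval -0.14 to 0.7, adjusted p = 0.29). Slc7a7 stood at 4.57 ± 0.55 FPKM in dLAM and 4.78 ± 1.04 FPKM in Mono-MΦ. Slc7a7 had a log2 fold change of -0.04 (95% interval -0.42 to 0.33, adjusted p = 0.87). The 6 light chains together summed to 59.2, 56.1 and 57.8 FPKM in dLAM libraries 1, 2 and 3 and to 28.6, 38.6 and 28.4 FPKM in the Mono-MΦ libraries, while Slc3a2 alone stood at 20.6, 18.8 and 21.98 against 10.99, 17.2 and 10.4 FPKM. The FPKM scale is per length, so these levels can be set beside each other: the light chains exceeded the heavy chain in every library, and Slc7a10, the light chain with the lowest level, had at most 0.0418 FPKM.

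Slc7a11, the light chain that exchanges glutamate for cystine and supplies glutathione synthesis, read 4.35, 2.85 and 9.24 FPKM in dLAM and 3.75, 10.2 and 4.96 FPKM in Mono-MΦ. For Slc7a11 the log2 fold change was -0.2 (95% interval -1.17 to 0.78, adjusted p = 0.77). It varied more within each group than between them, with dLAM library 3 and Mono-MΦ library 2 as the high libraries. Its promoter is printed because its upstream window holds both motifs linked to amino acid and oxidant stress. The window is the 250 bases before the RefSeq start on GRCm38.p6, chr3:50443614-50443863, minus strand, and capitals mark matches to TGATGNAA (amino acid response) and TGANNNNGC (antioxidant response) on either strand.

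Slc7a11: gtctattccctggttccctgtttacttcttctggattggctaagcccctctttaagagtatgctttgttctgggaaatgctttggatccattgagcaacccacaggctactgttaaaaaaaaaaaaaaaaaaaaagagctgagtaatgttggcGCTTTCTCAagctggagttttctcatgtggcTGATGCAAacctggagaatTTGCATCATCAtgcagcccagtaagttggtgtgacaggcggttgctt

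TGATGNAA matched at bases 66 to 59 and, on the opposite strand, 47 to 40 before the start, and TGANNNNGC matched on the opposite strand at 97 to 89 and at 45 to 37, where it overlaps the second TGATGNAA match. Of 27025 genes with a RefSeq window of this length (32851 windows), 3.91% held TGATGNAA and 38.7% held TGANNNNGC in at least 1 window. Of the 141 members, 103 had a window, and 4 of these held TGATGNAA (3.88%) and 55 held TGANNNNGC (53.4%). The members had all passed the detection limit, and the 27025 genes were not chosen by level, so these shares are of unlike sets. Among windows of members called higher, 1 of 28 held TGATGNAA and 16 held TGANNNNGC, against 0 and 5 of 10 among those called lower. A match is a string of letters and not a measured binding site.

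Glutamine carriers went both ways. Slc38a2, the sodium-coupled carrier of small neutral amino acids and the most abundant amino acid carrier in both groups (chr15:96687392-96699730), read 43.9, 51.2 and 50.3 FPKM in dLAM and 68.6, 65.97 and 76.3 FPKM in Mono-MΦ, and its dLAM libraries were all below its Mono-MΦ libraries. For Slc38a2 the log2 fold change was -0.53 (SE 0.11, adjusted p = 0.0080). Slc38a1, its close relative, had 20.5 ± 1.39 FPKM in dLAM and 19.04 ± 2.18 FPKM in Mono-MΦ. Slc38a1 had a log2 fold change of 0.1 (95% interval -0.16 to 0.37, adjusted p = 0.54). Slc1a5, the glutamine exchanger of the cell surface, was higher in dLAM, with 9.4 ± 0.542 FPKM in dLAM and 6.6 ± 0.654 FPKM in Mono-MΦ (log2 fold change 0.46, adjusted p = 0.018). So was Slc38a7, a lysosomal glutamine carrier, with 6.43 ± 0.667 FPKM in dLAM and 3.73 ± 0.693 FPKM in Mono-MΦ (0.66, adjusted p = 0.013). Slc16a10, which lets aromatic amino acids cross the cell membrane (chr10:40033532-40142258), fell, at 5.06, 5.83 and 4.81 FPKM in dLAM and 12.01, 8.24 and 11.7 FPKM in Mono-MΦ. Slc16a10 had a log2 fold change of -0.89 (SE 0.16, adjusted p = 0.0046). Slc7a2, a carrier of arginine and lysine, was called higher, with 1.4 ± 0.347 FPKM in dLAM and 0.659 ± 0.0916 FPKM in Mono-MΦ (0.52, adjusted p = 0.034). Slc38a6 was called higher, with 1.84 ± 0.214 FPKM in dLAM and 1.05 ± 0.153 FPKM in Mono-MΦ (0.47, adjusted p = 0.029). Carriers on lysosomes that signal or feed amino acid sensing did not pass, among them Slc38a9 (log2 fold change -0.14, 95% interval -0.48 to 0.21, adjusted p = 0.53) and Slc36a1 (log2 fold change 0.22, 95% interval -0.18 to 0.61, adjusted p = 0.38). The histidine and peptide carriers Slc15a3 (log2 fold change 0.09, 95% interval -0.21 to 0.38, adjusted p = 0.66) and Slc15a4 (log2 fold change 0.19, 95% interval -0.12 to 0.49, adjusted p = 0.33) did not pass either.

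In this class the calls of Slc7a5, Slc7a8, Slc38a2 and Slc16a10 held without each library. The call of Slc3a2 was lost without each library but Mono-MΦ library 2 (adjusted p up to 0.095). That of Slc1a5 was lost without each dLAM library (up to 0.077), and that of Slc38a7 without dLAM library 1 or 2 (up to 0.059). Slc38a6 lost its call without each library but Mono-MΦ library 3 (up to 0.098), and Slc7a2 without each library but dLAM library 2 (up to 0.11). The 7 higher calls thus became 2, 3 and 3 without dLAM libraries 1, 2 and 3. They became 4 without Mono-MΦ library 1 and 5 without Mono-MΦ library 2 or 3. After quantile normalization the calls of Slc1a5 (0.054), Slc38a6 (0.16) and Slc7a2 (0.20) were lost.

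Sugar carriers numbered 27, of which 12 were tested and 7 did not pass, with a median log2 fold change of 0.07. In dLAM 4 were higher (33.3%, background 19.9%, 2 of them tested through dLAM alone) and 1 was lower (8.33%, background 10.6%). The class summed to 65.98 to 81.2 FPKM in dLAM and 59.4 to 79.1 FPKM in Mono-MΦ, and these ranges overlapped. Slc37a2, an exchanger of glucose 6-phosphate and phosphate of the endoplasmic reticulum that is known from macrophages (chr9:37227585-37255738), read 8.93, 8.53 and 8.92 FPKM in dLAM and 3.56, 4.26 and 3.01 FPKM in Mono-MΦ. It was 2.44-fold higher in dLAM (log2 fold change 1.1, SE 0.13, adjusted p = 7.2e-04), with no overlap. The main glucose carrier of the cell surface, Slc2a1, was the most abundant sugar carrier in both groups and read 39.96, 26.1 and 32.1 FPKM in dLAM and 35.3, 42.7 and 22.7 FPKM in Mono-MΦ. The libraries of each group spread over a similar range, and no difference was detectable (log2 fold change -0.01, 95% interval -0.58 to 0.55, adjusted p = 0.98). Slc2a6, a lysosomal member of the glucose carrier family, fell, with 5.86 ± 0.424 FPKM in dLAM and 8.45 ± 0.811 FPKM in Mono-MΦ (log2 fold change -0.46, adjusted p = 0.020). Slc5a3, the sodium-coupled carrier of myo-inositol, rose, with 1.92 ± 0.377 FPKM in dLAM and 0.625 ± 0.0286 FPKM in Mono-MΦ (0.84, adjusted p = 0.0035). Slc45a4, which could be placed in another class, rose, with 3.91 ± 0.857 FPKM in dLAM and 2.07 ± 0.624 FPKM in Mono-MΦ (0.68, adjusted p = 0.035). Slc2a8, an intracellular glucose carrier, rose, with 1.36 ± 0.309 FPKM in dLAM and 0.597 ± 0.0821 FPKM in Mono-MΦ (0.56, adjusted p = 0.022). The call of Slc2a6 was lost without dLAM library 1 or 2 or Mono-MΦ library 1 or 3 (adjusted p up to 0.077). That of Slc2a8 was lost without dLAM library 1 or 2 or Mono-MΦ library 2 or 3 (up to 0.066), and that of Slc45a4 without each library but Mono-MΦ library 3 (up to 0.12). No lower call was left without dLAM library 1 or 2 or Mono-MΦ library 3. The higher calls numbered 2 without dLAM library 1 or 2 or Mono-MΦ library 2, and 3 without each of the others. Slc2a8 (0.18) and Slc45a4 (0.10) also lost the call after quantile normalization, and Slc45a4 (0.055) after median-of-ratios scaling.

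Slc2a3, the high-affinity glucose carrier, did not pass the test (log2 fold change -0.38, 95% interval -1.2 to 0.44, adjusted p = 0.47), but its Mono-MΦ libraries stood apart from each other, at 2.48, 2.13 and 2.54 FPKM in dLAM and 1.37, 4.37 and 5.66 FPKM in Mono-MΦ. Mono-MΦ library 1 was the lowest of all 6, and without it Slc2a3 was lower in dLAM (log2 fold change -0.82, adjusted p = 0.0091). Slco4c1, an organic anion transporting polypeptide chosen after its values were seen, had the same order of Mono-MΦ libraries, at 1.05, 0.679 and 0.459 FPKM in dLAM and 0.818, 4.19 and 5.87 FPKM in Mono-MΦ. Slco4c1 had a log2 fold change of -1.23 (95% interval -2.29 to -0.17, adjusted p = 0.079). Without Mono-MΦ library 1 its log2 fold change was -1.80 (adjusted p = 0.0014). After quantile normalization it was called lower with all 6 libraries (-1.42, adjusted p = 0.038). The neutrophil and progenitor markers summed to 1981, 7109 and 11959 FPKM in Mono-MΦ libraries 1, 2 and 3, which is the same order, and their part in these values was not tested.

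Of 33 metal carriers, 25 were tested, with a median log2 fold change of 0.13. By limma, 8 were higher in dLAM (32%, background 19.9%) and none was lower (background 10.6%, 1 lower at an unadjusted p under 0.05). The class summed to 189 to 204 FPKM in dLAM and 162 to 172 FPKM in Mono-MΦ, without overlap. Of the 10 tested SLC39 members, which import zinc and some other metals into the cytosol, 5 were higher. Of the 6 tested SLC30 members, which move zinc out of the cytosol into organelles or out of the cell, 1 was higher. The SLC30 member Slc30a4, the SLC39 member Slc39a4 and Slc41a2 were tested through dLAM alone. These 3 calls had to differ and give no support to the count. The count of 0 lower was 1 after median-of-ratios scaling and after quantile normalization, and in both cases this was Slc30a1, the zinc exporter of the cell surface. It had 3.95 ± 0.257 FPKM in dLAM and 5.06 ± 0.225 FPKM in Mono-MΦ as deposited (log2 fold change -0.29, 95% interval -0.54 to -0.04, adjusted p = 0.082), and a log2 fold change of -0.36 (adjusted p = 0.042) and -0.42 (adjusted p = 0.025) under the 2 scalings.

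Slc30a4, which moves zinc into vesicles and lysosomes (chr2:122681233-122702663), had the largest change of the class. It read 5.02, 5.77 and 5.1 FPKM in dLAM and 0.546, 0.691 and 0.637 FPKM in Mono-MΦ. Every dLAM value exceeded 5 FPKM and no Mono-MΦ value reached 1 FPKM, and the means differed 8.48-fold (log2 fold change 1.95, SE 0.12, adjusted p = 4.9e-05). Its promoter is printed because it belongs to the metal carrier with the largest change. The window is the 250 bases before the RefSeq start on GRCm38.p6, chr2:122702664-122702913, minus strand, and capitals mark matches to TGCNCNC, the core of the metal response element, on either strand.

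Slc30a4: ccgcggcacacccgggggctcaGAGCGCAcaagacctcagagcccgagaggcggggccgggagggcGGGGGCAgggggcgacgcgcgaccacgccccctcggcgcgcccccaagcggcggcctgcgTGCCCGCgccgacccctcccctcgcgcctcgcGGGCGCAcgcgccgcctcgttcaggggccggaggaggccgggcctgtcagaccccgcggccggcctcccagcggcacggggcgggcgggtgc

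The far end of the window lies in an exon of a neighbouring gene. The matches lie at bases 124 to 118 before the start on the strand of the gene and at 228 to 222, 184 to 178 and 92 to 86 on the opposite strand. TGCNCNC is a common string, found in 47.2% of the 27025 genes with a window, in 58 of the 103 members with a window (56.3%), in 16 of 28 called higher and in 3 of 10 called lower. CACGTG, the E-box bound by regulators of lysosomal genes, was found in 6.86% of these genes and in 19 of the 103 members (18.4%), of which 5 were called higher and 2 lower. The 103 members had all passed the detection limit, and the 27025 genes were not chosen by level. The shares are of unlike sets and do not show an excess of a motif in transporters.

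Zinc importers that rose ranged from abundant to scarce. Slc39a1, a zinc importer of the cell surface and the most abundant metal carrier in both groups (chr3:90248172-90253612), read 45.8, 39.8 and 39.6 FPKM in dLAM and 31.4, 30.2 and 26.8 FPKM in Mono-MΦ. For Slc39a1 the log2 fold change was 0.49 (SE 0.11, adjusted p = 0.011). Slc39a10, another importer of the cell surface, read 8.18, 9.75 and 7.62 FPKM in dLAM and 5.01, 4.27 and 3.61 FPKM in Mono-MΦ. For Slc39a10 the log2 fold change was 0.85 (SE 0.14, adjusted p = 0.0038). Slc39a4, best known from zinc uptake in the gut, was scarce at 1.31, 1.06 and 1.81 FPKM in dLAM and 0.328, 0.192 and 0.0264 FPKM in Mono-MΦ. Slc39a4 had a log2 fold change of 1.01 (SE 0.17, adjusted p = 0.0036). None of these 3 genes had overlapping groups, but Slc39a4 was tested through dLAM alone and so had to differ. Slc39a6 (0.48, adjusted p = 0.023) and Slc39a13 (0.42, adjusted p = 0.049) were also called higher, but the call of Slc39a13 was lost without each library (adjusted p up to 0.17) and that of Slc39a6 without dLAM library 1 or 3 or Mono-MΦ library 1 or 2 (up to 0.093). Slc39a14, an importer of zinc and iron, did not pass (log2 fold change 0.06, 95% interval -0.36 to 0.48, adjusted p = 0.83), and Slc39a8 was below the detection limit.

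Iron, heme, copper and magnesium carriers mostly did not pass. Slc11a2, which moves ferrous iron out of endosomes, rose, with 2.61 ± 0.134 FPKM in dLAM and 1.38 ± 0.261 FPKM in Mono-MΦ (0.61, adjusted p = 0.012), but did not pass after quantile normalization (adjusted p = 0.071). Slc11a1, the phagosomal metal carrier tied to resistance to intracellular microbes, had 18.4 ± 2.27 FPKM in dLAM and 16.4 ± 2.14 FPKM in Mono-MΦ. For Slc11a1 the log2 fold change was 0.16 (95% interval -0.15 to 0.48, adjusted p = 0.42). Slc40a1, the iron exporter ferroportin, read 2.32, 1.88 and 1.68 FPKM in dLAM and 0.93, 2.75 and 3.58 FPKM in Mono-MΦ, and its dLAM levels lay inside the range of its Mono-MΦ levels. For Slc40a1 the log2 fold change was -0.12 (95% interval -0.83 to 0.59, adjusted p = 0.80). Slc48a1, which carries heme out of the phagolysosome, had 18.7 ± 1.53 FPKM in dLAM and 15.4 ± 1.74 FPKM in Mono-MΦ (log2 fold change 0.27, 95% interval 0.00 to 0.54, adjusted p = 0.12). The copper importer Slc31a1 had 6.09 ± 0.136 FPKM in dLAM and 6.66 ± 0.397 FPKM in Mono-MΦ. For Slc31a1 the log2 fold change was -0.11 (95% interval -0.35 to 0.13, adjusted p = 0.46). The magnesium carrier Slc41a2 rose, from 0.561 ± 0.0934 FPKM in Mono-MΦ to 1.99 ± 0.392 FPKM in dLAM (0.93, adjusted p = 0.0025). After quantile normalization Slc39a6 (0.053) and Slc39a13 (0.32) no longer passed.

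**Figure D3:**
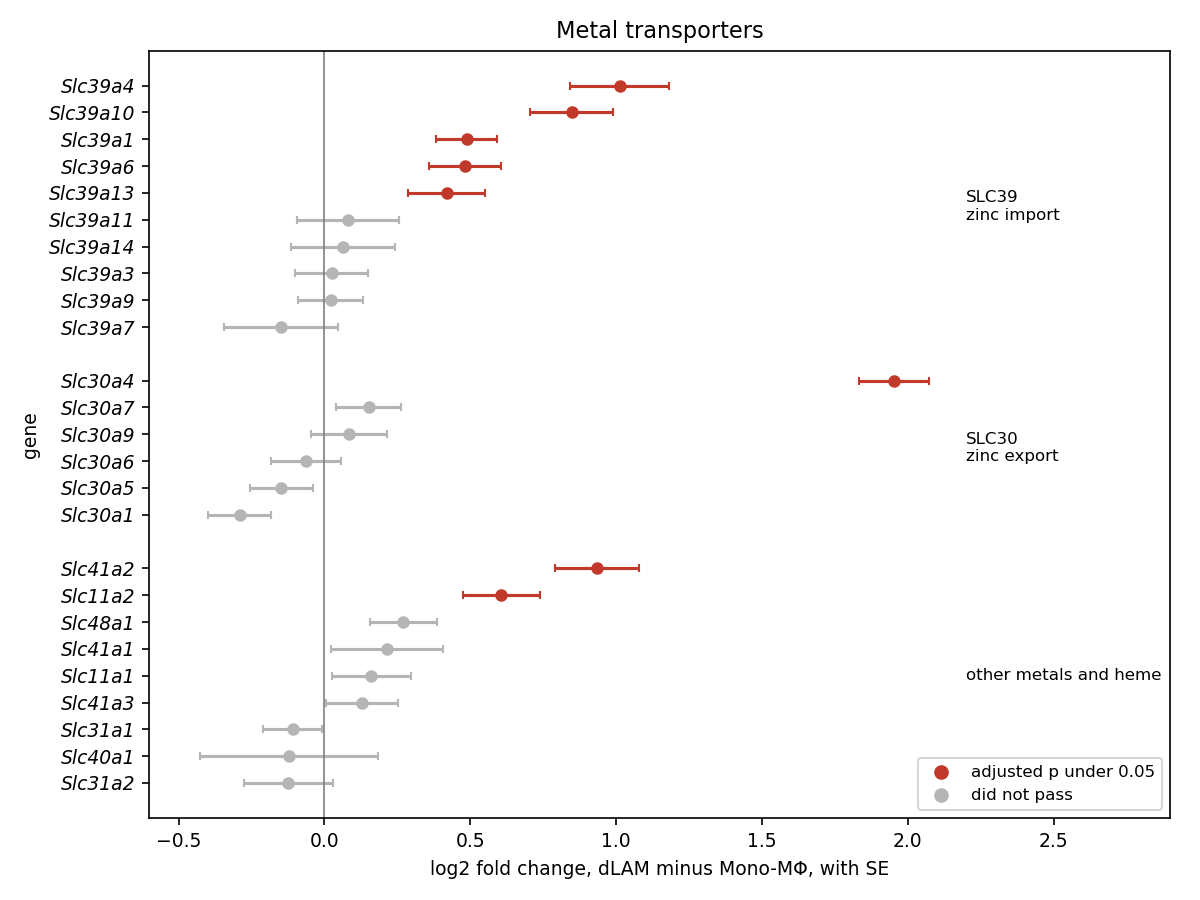
Log2 fold change (dLAM minus Mono-MΦ, x axis) with its standard error for the 25 tested metal carriers (y axis), grouped into SLC39 importers, SLC30 exporters and carriers of other metals and heme. Slc30a4 stands at 1.95, next to 5 SLC30 relatives between -0.29 and 0.15, and the 5 called SLC39 members lie between 0.42 and 1.01. Slc30a4, Slc39a4 and Slc41a2 were tested through dLAM alone.

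In the list of 10 genes that respond to metals or store them, 9 were tested, and Hmox1, the heme-degrading oxygenase, was the only one called, with 79.7 ± 20.7 FPKM in dLAM and 42.8 ± 5.35 FPKM in Mono-MΦ (0.85, adjusted p = 0.015). The ferritin heavy chain Fth1 (log2 fold change 1.07, 95% interval 0.18 to 1.96, adjusted p = 0.072) and the zinc-binding metallothioneins Mt1 (log2 fold change 0.48, 95% interval -0.23 to 1.18, adjusted p = 0.28) and Mt2 (log2 fold change 0.49, 95% interval 0.09 to 0.9, adjusted p = 0.070) did not pass.

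Of 9 nucleoside and nucleobase carriers, 6 were tested, 3 were higher in dLAM (50%, background 19.9%) and 1 was lower (16.7%, background 10.6%). The median log2 fold change was 0.34, and the class summed to 24.5 to 27.4 FPKM in dLAM against 16.1 to 23.1 FPKM in Mono-MΦ. The 3 that rose are the equilibrative carriers Slc29a1, Slc29a2 and Slc29a3. Slc29a3, which lets nucleosides leave the lysosome and whose loss causes histiocyte disorders in people (chr10:60712072-60752794), read 16.7, 17.8 and 14.2 FPKM in dLAM and 6.93, 7.68 and 8.12 FPKM in Mono-MΦ. Its groups did not overlap and the means differed 2.14-fold (log2 fold change 1.0, SE 0.12, adjusted p = 7.4e-04). Slc29a1, the equilibrative carrier of the cell surface, read 2.65, 2.79 and 2.15 FPKM in dLAM and 1.13, 0.841 and 0.897 FPKM in Mono-MΦ. Slc29a1 had a log2 fold change of 0.85 (SE 0.14, adjusted p = 0.0028). Slc29a2 was scarcer, at 1.12, 1.02 and 1.24 FPKM in dLAM and 0.295, 0.115 and 0.0475 FPKM in Mono-MΦ. For Slc29a2 the log2 fold change was 0.89 (SE 0.14, adjusted p = 0.0025). The calls of the 3 held without each library, but Slc29a2 was tested through dLAM alone and so had to differ. Slc43a3, a purine nucleobase carrier (chr2:84936579-84958509), fell, at 1.46, 1.37 and 1.38 FPKM in dLAM and 3.24, 3.03 and 4.6 FPKM in Mono-MΦ, with no overlap. Slc43a3 had a log2 fold change of -0.93 (SE 0.15, adjusted p = 0.0034). Slc28a2, the sodium-coupled carrier of purine nucleosides, had 3.92 ± 0.652 FPKM in dLAM and 5.76 ± 1.97 FPKM in Mono-MΦ. Slc28a2 had a log2 fold change of -0.42 (95% interval -0.97 to 0.12, adjusted p = 0.22). It was lower in dLAM without Mono-MΦ library 1 (-0.68, adjusted p = 0.023), which brought the count of lower calls to 2.

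Lipid carriers numbered 13, of which 5 were tested, with a median log2 fold change of 0.35. By limma, 1 was higher (20%, background 19.9%), tested through dLAM alone, and 0 were lower (background 10.6%, also 0 lower at an unadjusted p under 0.05). The sums overlapped, at 22.3 to 25.7 FPKM in dLAM and 17.9 to 23.9 FPKM in Mono-MΦ. Slc10a3, whose log2 fold change of 0.35 is the class median, and Slc10a7 were placed here by family and could be placed elsewhere. Slc27a3, of the family of fatty acid transport proteins that activate long-chain fatty acids, read 1.12, 2.57 and 1.56 FPKM in dLAM and 0.376, 0.379 and 0.375 FPKM in Mono-MΦ, and stayed under the detection limit in Mono-MΦ. Slc27a3 had a log2 fold change of 0.96 (SE 0.20, adjusted p = 0.0090). Slc27a1 read 4.72, 4.27 and 8.44 FPKM in dLAM and 1.96, 3.64 and 3.87 FPKM in Mono-MΦ, with dLAM library 3 well above the other libraries. Slc27a1 had a log2 fold change of 0.7 (95% interval 0.06 to 1.34, adjusted p = 0.096). Slc27a4 had 5.6 ± 0.729 FPKM in dLAM and 7.54 ± 1.53 FPKM in Mono-MΦ. For Slc27a4 the log2 fold change was -0.36 (95% interval -0.74 to 0.02, adjusted p = 0.14). Without Mono-MΦ library 1 it was called lower (-0.52, adjusted p = 0.033). Slc10a7, the lipid-class member with the highest level in dLAM, had 6.45 ± 0.248 FPKM in dLAM and 7.32 ± 0.928 FPKM in Mono-MΦ. Slc10a7 had a log2 fold change of -0.15 (95% interval -0.43 to 0.12, adjusted p = 0.38). Without 1 library of each group (dLAM library 3 and Mono-MΦ library 2, the libraries with more Y-linked RNA), no lipid carrier was called higher.

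Of 55 carriers of inorganic ions, 17 were tested, 5 were higher (29.4%, background 19.9%) and 1 was lower (5.88%, background 10.6%). The median log2 fold change was 0.17, and the class summed to 155 to 158 FPKM in dLAM against 120 to 134 FPKM in Mono-MΦ. Beside Slc12a2, Slc12a7, which lets potassium and chloride leave the cell together (chr13:73733094-73816754), rose, at 16.4, 15.96 and 14.9 FPKM in dLAM and 5.85, 4.32 and 5.21 FPKM in Mono-MΦ, so a chloride importer and a chloride exporter were both higher. Slc12a7 had a log2 fold change of 1.46 (SE 0.12, adjusted p = 1.8e-04). Sodium-proton exchangers of the Golgi and of endosomes rose. Slc9a7 had 4.42 ± 0.667 FPKM in dLAM and 2.07 ± 0.148 FPKM in Mono-MΦ (0.81, adjusted p = 0.0033). Slc9a9 had 12.1 ± 1.41 FPKM in dLAM and 7.54 ± 1.19 FPKM in Mono-MΦ (0.62, adjusted p = 0.013), and did not pass without dLAM library 2 (0.056). The bicarbonate importer Slc4a7 rose too, with 15.8 ± 1.77 FPKM in dLAM and 10.3 ± 1.28 FPKM in Mono-MΦ (0.57, adjusted p = 0.012). Slc8a1, the sodium-calcium exchanger and the most abundant tested ion carrier in both groups, had 29.7 ± 1.74 FPKM in dLAM and 27.1 ± 1.18 FPKM in Mono-MΦ. For Slc8a1 the log2 fold change was 0.13 (95% interval -0.08 to 0.34, adjusted p = 0.34).

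Mitochondrial carriers form the SLC25 family, which exchanges metabolites across the inner mitochondrial membrane. Of 47, 30 were tested, 5 were higher (16.7%, background 19.9%) and 3 were lower (10%, background 10.6%). The median log2 fold change was -0.03, and the sums overlapped, at 305 to 319 FPKM in dLAM against 316 to 334 FPKM in Mono-MΦ. Slc25a1, which exports citrate for fatty acid and sterol synthesis (chr16:17925223-17928219), rose, at 8.3, 7.0 and 7.02 FPKM in dLAM and 3.86, 4.41 and 3.57 FPKM in Mono-MΦ, with no overlap. Slc25a1 had a log2 fold change of 0.77 (SE 0.12, adjusted p = 0.0029). Slc25a24, which exchanges ATP-magnesium for phosphate (chr3:109123149-109168457), fell, at 20.7, 19.1 and 20.3 FPKM in dLAM and 28.9, 29.4 and 41.7 FPKM in Mono-MΦ, and Mono-MΦ library 3 was its highest library. For Slc25a24 the log2 fold change was -0.69 (SE 0.15, adjusted p = 0.011). The most abundant member of all classes, the ADP/ATP exchanger Slc25a5, had 82.4 ± 5.96 FPKM in dLAM and 89.1 ± 5.26 FPKM in Mono-MΦ. Slc25a5 had a log2 fold change of -0.11 (95% interval -0.35 to 0.12, adjusted p = 0.45). Its gene has processed pseudogenes, so its level is uncertain.

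Slc25a33, a pyrimidine nucleotide carrier (log2 fold change 0.69, adjusted p = 0.018), was called higher. So were Slc25a25, an ATP-magnesium carrier like Slc25a24 (0.44, adjusted p = 0.047), and Slc25a4, an ADP/ATP exchanger (0.35, adjusted p = 0.038). Slc25a2, an ornithine carrier (-0.56, adjusted p = 0.045), and Slc25a28, one of the mitochondrial iron importers (-0.45, adjusted p = 0.0496), were called lower. The other iron importer, Slc25a37, did not pass (log2 fold change -0.03, 95% interval -0.41 to 0.35, adjusted p = 0.91). None of these 5 calls held without every library. Slc25a33 lost its call without dLAM library 1 or 3 or Mono-MΦ library 3 (adjusted p up to 0.066). Slc25a25 lost it without each library but dLAM library 1 (0.14), and Slc25a28 without each but dLAM library 3 (0.16). Slc25a4 (0.11) and Slc25a2 (0.15) lost it without each library but Mono-MΦ library 1. After quantile normalization Slc25a33 (0.055) and Slc25a25 (0.25) did not pass, nor after median-of-ratios scaling Slc25a25 (0.062) and Slc25a4 (0.13). Of the exon bases of Slc25a33, 14.9% overlap Gm13068 on the opposite strand.

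Among 47 organic ion carriers, 7 were tested, with a median log2 fold change of 0.33. In dLAM 3 were higher (42.9%, background 19.9%, 1 of them tested through dLAM alone) and 2 were lower (28.6%, background 10.6%). Slco3a1, which carries prostaglandins, rose beside Slco2b1, at 2.82, 3.46 and 3.67 FPKM in dLAM and 1.24, 1.5 and 0.833 FPKM in Mono-MΦ. For Slco3a1 the log2 fold change was 0.99 (SE 0.16, adjusted p = 0.0030). Slc22a5, the carnitine importer, rose, with 2.66 ± 0.0539 FPKM in dLAM and 1.61 ± 0.317 FPKM in Mono-MΦ (0.5, adjusted p = 0.027). Its relatives Slc22a4, which carries ergothioneine, and Slc22a15 fell. Slc22a4 read 1.11, 0.772 and 1.82 FPKM in dLAM and 2.46, 4.31 and 2.48 FPKM in Mono-MΦ. Slc22a4 had a log2 fold change of -0.87 (SE 0.23, adjusted p = 0.027). Slc22a15 read 1.13, 1.83 and 2.06 FPKM in dLAM and 2.92, 4.0 and 4.44 FPKM in Mono-MΦ. Slc22a15 had a log2 fold change of -0.85 (SE 0.19, adjusted p = 0.013). All dLAM libraries of both genes lay below all Mono-MΦ libraries. The call of Slc22a4 was lost without dLAM library 1 or 2 or Mono-MΦ library 2 (adjusted p up to 0.098) and that of Slc22a5 without each library but Mono-MΦ library 3 (up to 0.087) and after quantile normalization (0.15).

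Choline carriers of the SLC44 family went in opposite directions. Slc44a2 (chr9:21320698-21355028) was the third most abundant tested carrier in Mono-MΦ and read 22.8, 24.4 and 25.1 FPKM in dLAM and 43.1, 34.8 and 41.95 FPKM in Mono-MΦ. It was 1.66-fold lower in dLAM (log2 fold change -0.7, SE 0.11, adjusted p = 0.0027). Slc44a1, the better known choline carrier, rose, at 8.36, 7.27 and 8.9 FPKM in dLAM and 4.36, 5.04 and 4.88 FPKM in Mono-MΦ. For Slc44a1 the log2 fold change was 0.67 (SE 0.12, adjusted p = 0.0045). Neither gene had overlapping groups, and both calls held without each library. The urea carrier Slc14a1 rose as well, with 2.13 ± 0.477 FPKM in dLAM and 0.688 ± 0.185 FPKM in Mono-MΦ (0.89, adjusted p = 0.0049).

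The carboxylate class, which holds the lactate carriers, had 5 of 17 members tested and 1 higher. Slc16a1 and Slc16a3, which move lactate and protons, did not pass. Slc16a1 stood at 3.87 ± 0.657 FPKM in dLAM and 3.53 ± 0.736 FPKM in Mono-MΦ. Slc16a1 had a log2 fold change of 0.11 (95% interval -0.28 to 0.49, adjusted p = 0.67). Slc16a3 stood at 9.73 ± 1.6 FPKM in dLAM and 12.1 ± 1.52 FPKM in Mono-MΦ. Slc16a3 had a log2 fold change of -0.29 (95% interval -0.62 to 0.04, adjusted p = 0.17). Slc16a13 was called higher (0.51, adjusted p = 0.027), a call lost without each library but Mono-MΦ library 1 (adjusted p up to 0.094) and after quantile normalization (0.22). All 5 nucleotide sugar carriers of the SLC35A family, which supply the Golgi, were tested, and 2 were lower. These were Slc35a3, which carries UDP-N-acetylglucosamine, with 4.63 ± 0.199 FPKM in dLAM and 6.48 ± 0.786 FPKM in Mono-MΦ (-0.41, adjusted p = 0.038), and Slc35a5, with 2.76 ± 0.339 FPKM in dLAM and 4.31 ± 0.449 FPKM in Mono-MΦ (-0.5, adjusted p = 0.024). These calls were lost without each library but Mono-MΦ library 1 for Slc35a3 (up to 0.13), and without each dLAM library or Mono-MΦ library 3 for Slc35a5 (up to 0.094). Of the vitamin carriers 2 of 9 were tested and none was called by limma (at an unadjusted p under 0.05, 2 were higher). The ascorbate carrier Slc23a2 read 9.15, 9.09 and 9.88 FPKM in dLAM and 5.47, 8.53 and 5.19 FPKM in Mono-MΦ. For Slc23a2 the log2 fold change was 0.51 (95% interval 0.11 to 0.92, adjusted p = 0.060). Slc23a2 passed without Mono-MΦ library 2 (0.71, adjusted p = 0.0042). The taurine carrier Slc6a6, one of the most abundant members, read 39.05, 41.7 and 47.4 FPKM in dLAM and 30.8, 38.8 and 28.5 FPKM in Mono-MΦ. Slc6a6 had a log2 fold change of 0.38 (95% interval 0.06 to 0.7, adjusted p = 0.073). Slc6a6 passed without Mono-MΦ library 2 (0.51, adjusted p = 0.021).

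By place in the cell rather than by substrate, a list of lysosomal carriers held 14 tested members, of which 9 did not pass. Slc46a3, Slc29a3, Slc38a7 and Slc2a8 were higher (4 members, 28.6%, background 19.9%). Slc2a6 was lower (1 member, 7.14%, background 10.6%). The list does not hold Slc30a4, a vesicular carrier also known from lysosomes, and Slc2a8 was tested through dLAM alone. Their median log2 fold change was 0.24, and they summed to 122, 130 and 120 FPKM in dLAM libraries 1, 2 and 3 and 101, 108 and 99.5 FPKM in the Mono-MΦ libraries. The dLAM sums lay above the Mono-MΦ sums in this group, as they did in the metal, nucleoside, inorganic ion and vitamin classes and in the class of amine, taurine and creatine carriers. The sums of the amino acid, sugar, lipid, mitochondrial, carboxylate and organic ion classes overlapped, and those of the nucleotide sugar class and of the remaining carriers were below in dLAM.

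The order of levels, on the FPKM scale, was alike at the top and then differed. In dLAM it ran Slc25a5 (82.4 ± 5.96), Slc38a2 (48.5 ± 3.95), Slc6a6 (42.7 ± 4.26), Slc39a1 (41.7 ± 3.54), Slc25a4 (33.3 ± 0.341) and Slc2a1 (32.7 ± 6.97). In Mono-MΦ it ran Slc25a5 (89.1 ± 5.26), Slc38a2 (70.3 ± 5.36), Slc44a2 (39.9 ± 4.51), Slc2a1 (33.6 ± 10.1), Slc25a24 (33.4 ± 7.25) and Slc6a6 (32.7 ± 5.4). In both groups the libraries of Slc25a5 lay above those of Slc38a2. In dLAM, neighbours from Slc38a2 to Slc39a1 had overlapping libraries, as did Slc25a4 and Slc2a1. In Mono-MΦ, neighbours from Slc44a2 to Slc6a6 overlapped, and Slc38a2 lay above Slc44a2 in every library. Only 14 members reached 20 FPKM in a group, and 15 stayed below 2 FPKM on average in both.

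Some members varied within the groups more than between them. In 30 of the 141 members (21.3%), dLAM library 3 was the highest dLAM library and Mono-MΦ library 2 the highest Mono-MΦ library, against 22.2% of all tested genes. The same libraries had more Y-linked RNA, with Ddx3y at 10.1 and 10.6 FPKM against 1.56 to 2.68 FPKM in the other 4. The part of sex or of a mixture of sexes in these values was not tested. Besides Slc7a11, the members with this order included Slc36a4 and Slc20a1, both chosen after their values were seen. The amino acid carrier Slc36a4 read 4.87, 6.77 and 9.24 FPKM in dLAM and 8.12, 13.04 and 3.59 FPKM in Mono-MΦ. For Slc36a4 the log2 fold change was -0.11 (95% interval -1.03 to 0.81, adjusted p = 0.87). The phosphate importer Slc20a1 read 6.39, 7.8 and 9.75 FPKM in dLAM and 6.21, 13.1 and 7.36 FPKM in Mono-MΦ. For Slc20a1 the log2 fold change was -0.09 (95% interval -0.7 to 0.51, adjusted p = 0.82).

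**Figure D4:**
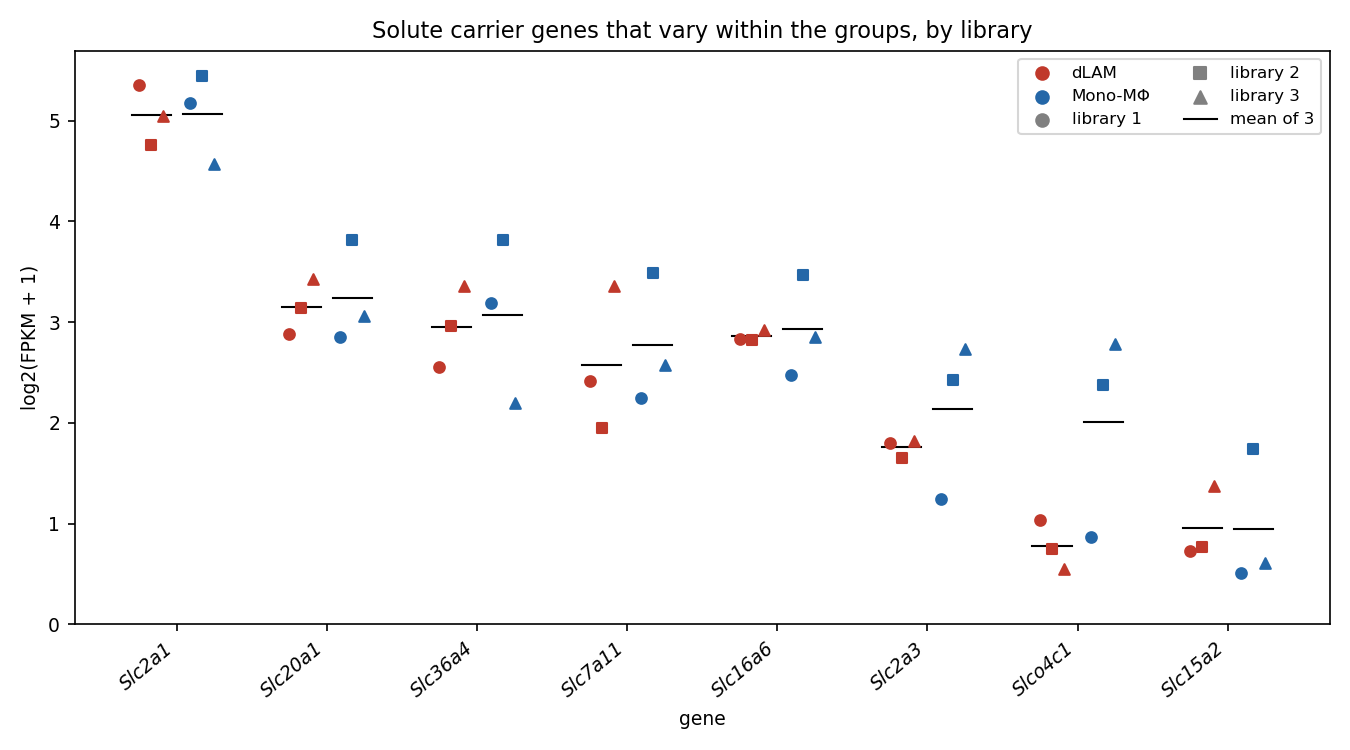
Level as log2(FPKM + 1) (y axis) in each library for 8 members with a wide spread within a group (x axis), red for dLAM and blue for Mono-MΦ, with circle, square and triangle for libraries 1, 2 and 3 and a line at the mean. Slc7a11, Slc36a4, Slc20a1, Slc16a6 and Slc15a2 have dLAM library 3 (red triangle) and Mono-MΦ library 2 (blue square) on top, while Slc2a3 and Slco4c1 have a low Mono-MΦ library 1 (blue circle).

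Transporters of the solute carrier superfamily whose symbols the naming rule does not take were given from a list of 63 genes, of which 38 were tested, 6 were higher (1 of them tested through dLAM alone) and 6 were lower, with a median log2 fold change of -0.01. Among those called, the largest changes were in 4 genes. Mfsd12, a lysosomal cysteine importer, rose, with 12.3 ± 1.75 FPKM in dLAM and 4.87 ± 0.357 FPKM in Mono-MΦ (log2 fold change 1.18, adjusted p = 5.4e-04). Tusc3 rose, with 9.77 ± 0.901 FPKM in dLAM and 4.52 ± 1.19 FPKM in Mono-MΦ (0.98, adjusted p = 0.0040). Pqlc3 fell, with 5.81 ± 0.837 FPKM in dLAM and 11.8 ± 1.2 FPKM in Mono-MΦ (-0.91, adjusted p = 0.0019). Slc35c1, the GDP-fucose carrier of the Golgi, fell, with 9.04 ± 0.964 FPKM in dLAM and 16.8 ± 2.43 FPKM in Mono-MΦ (-0.82, adjusted p = 0.0029).

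Among 9 partner proteins of transporters, 8 were tested, 3 were higher and 1 was lower. Emb, a chaperone of the lactate carriers, fell, with 171 ± 26.8 FPKM in dLAM and 397 ± 4.28 FPKM in Mono-MΦ (-1.22, adjusted p = 7.0e-04), and the other chaperone of these carriers, Bsg, did not pass (log2 fold change 0.39, 95% interval 0.06 to 0.73, adjusted p = 0.077). Cp, the ferroxidase that works with ferroportin, was higher, at 2.02, 1.82 and 1.42 FPKM in dLAM and 0.015, 0.00486 and 0.00804 FPKM in Mono-MΦ. Cp had a log2 fold change of 1.44 (SE 0.13, adjusted p = 2.8e-04). Cp reached 1 FPKM in all dLAM libraries and in no Mono-MΦ library, so it had to differ once it was tested, and its call gives no support to the count. The lysosomal chloride-proton exchanger Clcn7 (0.51, adjusted p = 0.015) and the amino acid sensing GTPase Rragc (0.42, adjusted p = 0.023) were also higher.

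Of 12 genes of the amino acid response, 11 were tested, 3 were higher and 1 was lower. Phgdh, an enzyme of serine synthesis, was higher, with 3.27 ± 0.54 FPKM in dLAM and 0.863 ± 0.254 FPKM in Mono-MΦ (log2 fold change 1.2, adjusted p = 0.0013). Shmt2, which uses serine, was higher, with 18.2 ± 2.32 FPKM in dLAM and 9.14 ± 2.12 FPKM in Mono-MΦ (0.94, adjusted p = 0.0065). The stress factor Ddit3 was higher (0.5, adjusted p = 0.012) and Eif4ebp1 was lower (-0.49, adjusted p = 0.022). The regulator Atf4 did not pass (log2 fold change -0.08, 95% interval -0.47 to 0.31, adjusted p = 0.77). Of 8 antioxidant response genes, 7 were tested, and Gsr, glutathione reductase, was the one called, lower in dLAM with 76.9 ± 20.98 FPKM in dLAM and 347 ± 42.98 FPKM in Mono-MΦ (-2.19, adjusted p = 3.2e-04).

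Of the 206 members that were not tested, 61 were listed at 0 in all 6 libraries, 132 were above 0 somewhere but below 1 FPKM in every library, and 13 reached 1 FPKM in 1 or 2 libraries. Just inside the limit lay Slc7a2, Slc25a22, Slc29a2 and Slco4c1, whose third-highest library had 1.01, 1.01, 1.02 and 1.05 FPKM, and just outside lay Slc19a2, Slc52a3, Slc22a21 and Slc19a1, at 0.953, 0.945, 0.941 and 0.938 FPKM. Slc1a3, a glutamate importer known from glia, read 0.508, 0.312 and 0.254 FPKM in dLAM and 0.0187, 0 and 0 FPKM in Mono-MΦ. The folate carrier Slc46a1 read 0.641, 0.602 and 0.373 FPKM in dLAM and 0.169, 0.132 and 0.136 FPKM in Mono-MΦ. Slc39a8 read 0.442, 0.242 and 0.246 FPKM in dLAM and 0.101, 0.331 and 0.0725 FPKM in Mono-MΦ, and Slco4a1 read 0.675, 0.929 and 0.898 FPKM in dLAM and 0.444, 1.08 and 0.485 FPKM in Mono-MΦ. These 4 genes stayed below 1 FPKM in every dLAM library. The vesicular monoamine carrier Slc18a2, known from mast cells and chosen after its values were seen, read 0.32, 0.342 and 0.318 FPKM in dLAM and 0.0192, 0.0187 and 0.0463 FPKM in Mono-MΦ, and the mast cell markers summed to 40.9 to 85.3 FPKM in the same dLAM libraries and 0.423 to 1.39 FPKM in the Mono-MΦ libraries. Its level was not tested.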

How the data were processed

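The series measured RNA in cells sorted from cerebrospinal fluid. Its design text speaks of 10 samples, and the 6 libraries described above were analysed here. Per the submitters' processing notes, the tools were FastQC, HISAT2 and featureCounts and the build was mm10. Their versions, strand handling, annotation and treatment of multiply mapped reads were not stated. The authors deposited 1 table of FPKM values, which are not counts. With GENCODE M21 exon lengths (32672 genes matched), 27.4% to 44.6% of values under 20 reads came to a whole number of reads (tolerance 0.02). Counts could therefore not be restored, and fragment totals are estimates.

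Values were tested as log2(FPKM + 1) with limma 3.58.1 in R 4.3.3 (empirical Bayes with a trend, group as the sole term, genes at 1 FPKM or more in at least 3 of 6 libraries, Benjamini-Hochberg over 11317 genes, threshold 0.05). Folds on this scale understate changes of low genes. The fit was tested on simulated data, with values drawn independently for each gene and library. Only genes above a set mean level were moved there, so the simulation did not cover changes of members near 1 FPKM. Tables and plots used Python 3.11.15 with numpy 2.4.6, pandas 2.3.3 and matplotlib 3.10.9. Positions are from GENCODE M21 on mm10 and promoters from RefSeq on GRCm38.p6. No protein sequence was used here. Values of some genes are not reported here, though they remain in the counts and sums.

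The members, substrate classes and gene lists were chosen with earlier results of these data known, so no list was tested as a set. Named were a fixed set of members, up to 4 members a class with the largest change in each direction, the most abundant member of a class in each group and up to 4 genes a list. Slc38a6, Slc39a6, Slc39a13, Slc4a7, Slc25a4, Slc28a2, Slc36a4, Slc20a1, Slc16a6, Slc15a2, Slc7a10, Slco4c1, Slc18a2, Bsg, Atf4 and the genes named at the detection limit were added after their values were seen. Alternatives were the pseudocount, the filter, median-of-ratios and quantile scaling, the trend, a replicate block, a term for Y-linked RNA and leaving out each library.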

Additional observations from a re-analysis of the deposited data

How the results depend on the processing

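No value of the 74 tested named members reversed past the threshold under any alternative, and 14 of the 53 calls held under all of them: Slc12a7, Slc16a10, Slc25a1, Slc25a24, Slc29a3, Slc30a4, Slc37a2, Slc38a2, Slc39a10, Slc44a1, Slc44a2, Slc4a7, Slc7a5 and Slc7a8. Of these, Slc25a1, Slc30a4 and Slc37a2 reached 5 FPKM in all dLAM libraries and in no Mono-MΦ library. Under the filter of 5 FPKM they therefore had to differ, as did Slc38a7, and their calls there add no support. The calls of Slc12a2, Slc14a1, Slc29a1, Slc29a2, Slc39a4, Slc41a2, Slc43a3, Slc46a3, Slc5a3, Slc9a7, Slco2b1 and Slco3a1 were missing only under the filter of 5 FPKM, which left these genes untested. Of 1073 alternative values of the 74 tested named members, 913 kept direction and side of the threshold, 131 lost the call, 11 gained it and 18 changed sign with neither value past the threshold. With no filter the median log2 fold change of the members was 0.045, and 2 lipid carriers were higher. A filter of 5 FPKM tested fewer genes and left 17 of 67 members higher (25.4%) and 8 lower (11.9%). Of all genes tested under that filter, 18.95% were higher and 13.999% lower. The filter left 1 sugar, 4 metal, 1 nucleoside and 0 lipid carriers higher and 0 nucleoside carriers lower. Median-of-ratios scaling gave 36 higher (25.5%, against 16.7% of all tested genes) and 17 lower (12.1%, against 13.5%), with 1 metal carrier lower. Quantile normalization left 4 amino acid, 2 sugar and 5 metal carriers higher and gave 2 sugar carriers and 1 metal carrier lower; the cause was not tested. A term for Y-linked RNA gave 2 lipid carriers higher. With the 4 libraries of less Y-linked RNA, chosen after seeing the data, fewer samples left 24 members higher and 8 lower, with 4 amino acid, 2 sugar, 4 metal and 0 lipid carriers higher. Leaving out each library gave 27 to 33 members higher (19.1% to 23.4%) and 6 to 15 lower (4.26% to 10.6%). Of all tested genes, 14.05% to 18.5% were higher and 6.89% to 10.8% lower in the same fits. Those fits gave a median of 0.10 to 0.19, with 2 to 5 amino acid, 2 to 3 sugar and 6 to 7 metal carriers higher. They gave 0 to 1 sugar, 1 to 2 nucleoside and 0 to 1 lipid carriers lower. With the replicate number as a block, 31 members were higher and 7 lower, with 4 amino acid carriers higher. The labels do not say whether the numbers pair the samples. Deviations of same-numbered libraries from their group means correlated at 0.19, -0.15 and -0.09, and dLAM library 3 correlated best with Mono-MΦ library 2 (0.39). With 3 libraries per group, these correlations cannot decide whether libraries shared a mouse, a pool or a batch. FPKM without counts limits the precision of members near 1 FPKM.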
